A study of Mus musculus with 16 samples.

Results

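The genes examined here encode 9 receptors with which blood-forming cells hold on to, or find their way to, the bone marrow: the integrin chains Itga4, Itga5, Itga6, Itgal, Itgb1 and Itgb2, the hyaluronan receptor Cd44, the selectin ligand Selplg and the chemokine receptor Cxcr4. They were taken by name from a fixed list, and all 9 were found among the 26595 features of one expression table and the 36930 features of another. RNA sequencing had been done on sorted bone marrow cells of mice that carried or lacked Cd93, a transmembrane glycoprotein of stem and endothelial cells, and on leukemia stem cells after drug treatment. The series title ties metoclopramide to signalling through CD93 and to renewal of leukemic stem cells, and the tables were read here for adhesion and homing receptors.

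Wild-type C57BL/6 mice (WT) and CD93-/- mice (KO, strain background not labelled) gave naive LSK cells, a marrow fraction enriched for stem and progenitor cells that is sorted by absence of lineage markers and presence of the products of Ly6a and Kit. The leukemia model started from LSK cells of either genotype that had been transduced with BCR-ABL1 and green fluorescent protein and injected into syngeneic C57BL/6 recipients that were not irradiated. The leukemia stem cells (LSC) were sorted from the marrow once chronic myeloid leukemia (CML) had developed, so that host cells of these recipients carried Cd93 in the WT and the KO leukemia alike. In the drug experiment, C57BL/6 mice with the same leukemia received metoclopramide (MCP), a dopamine receptor antagonist, at 10 mg/kg or vehicle (Veh). All labels give an age of 8 postnatal weeks. Each naive group had 2 libraries and each leukemic group 3, which makes 16 in all. The labels do not say whether the libraries of a group came from separate mice or how many mice were pooled, so p-values may measure technical spread.

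An integrin is a pair of one alpha and one beta chain, and the pair decides the ligand. The Itgb1 chain pairs with Itga4 to bind Vcam1 and fibronectin, with Itga5 to bind fibronectin and with Itga6 to bind laminins, while Itgb2 pairs with Itgal to form LFA1, the receptor for Icam proteins on endothelium. Selplg binds selectins once its sugar chains are finished by fucosyl- and sialyltransferases and lets cells roll on vessel walls, Cd44 binds hyaluronan and osteopontin in the marrow matrix, and Cxcr4 draws cells toward the stromal chemokine Cxcl12.

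The libraries of the 2 experiments differed in quality, which touches every value below. A value of 0.003 in the experiment with CD93 genotypes and of 0.001 in the drug experiment is the lowest in the table and means no signal. LSK libraries had 14279 to 14906 features above that value, Veh libraries 19554 to 20014 and MCP libraries 15587 to 16447, but WT LSC libraries had 5525 to 7956 and KO LSC libraries 1230 to 2967. Of 20 genes that most cells express, 2 to 4 were at the lowest value in each WT LSC library and 6 to 12 in each KO LSC library, against 0 in the other groups. A gene listed at 0.003 in an LSC library of this experiment can therefore be a gene that was not captured. The sorting markers Kit and Ly6a summed to 718 to 890 RPKM (reads per kilobase of gene, scaled to the mapped reads of the library) in WT LSK, 1.02 to 22.2 in WT LSC, at most 1.83 in KO LSC, 86.2 to 101 in Veh and 73.6 to 85.9 in MCP. The sum of 10 neutrophil genes was higher in these LSC. It was 1944 to 5568 RPKM in WT LSK, 62244 to 109288 in WT LSC and 31522 to 50927 in KO LSC. In Veh it was 173 to 189 and in MCP 244 to 349. Most of it in WT LSC and KO LSC was S100a8, S100a9 and Camp. Of the 10 genes, 7 or 8 were above the lowest value in WT LSK libraries, 4 to 7 in WT LSC and 3 or 4 in KO LSC. Cxcr2, Ly6g and Mmp9 were at 0.003 in all 3 WT LSC and all 3 KO LSC libraries. Ngp, Mmp8 and Retnlg were at 0.003 in all 3 KO LSC libraries. Macrophage genes, 10 in number, summed to 3922 to 11772 RPKM in WT LSC and 1072 to 1783 in WT LSK. B cell genes, 7 in number, summed to 2598 to 4729 RPKM in WT LSK, most of it Igkc, and to 1.41 to 374 in WT LSC. Of 10 T and NK cell genes, 9 or 10 were above the lowest value in WT LSK and 2 to 4 in WT LSC. Their sum was 741 to 774 RPKM in WT LSK and 907 to 2562 in WT LSC, most of it Nkg7 in both. Cd3e and Cd3g were at 0.003 in all 3 WT LSC libraries. In such bulk samples fewer cells of a type and less RNA per cell cannot be told apart, and the part of these other cells in the results was not tested. Cd93 itself was at 5.34 and 22.9 RPKM in WT LSK against 1.01 and 2.10 in KO LSK. Its 3 WT LSC libraries held 0.003, 0.003 and 5.74 RPKM and its KO LSC libraries 0.003, 44.3 and 0.003, so that the library labelled KO LSC 2 held the highest Cd93 value of the genotype experiment. No comparison of Cd93 passed the test. The deleted stretch of Cd93 is not described in the labels, and directions involving KO LSC rest on the labels.

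The members lie on 7 mouse chromosomes in GRCm38. Itga4 is at chr2:79255426-79333123 on the plus strand, and 127 bases of its exons, or 1.30%, overlap exons of Cerkl on the opposite strand, the only such overlap among the 9 genes. Itgb1 is at chr8:128685654-128733200 (plus), Itga5 at chr15:103344286-103366763 (minus) and Cxcr4 at chr1:128588199-128592293 (minus). RefSeq promoter sequence of GRCm38.p6 was matched for 5 of the 9 members. The 250 bases before the start are printed for 4 of them, because Itga4 and Itgb1 are the pair of chains that fell together in KO LSC and Itga5 and Cxcr4 are the 2 members whose libraries overlapped under the drug. Capitals mark matches, on either strand, to GAGGAA, a core of ETS-type sites, or TGTGGT, a core of RUNX-type sites, 2 families of factors active in blood cells; the 2 words do not overlap each other.
Itga4, chr2:79255176-79255425, plus strand, with TGTGGT on the opposite strand: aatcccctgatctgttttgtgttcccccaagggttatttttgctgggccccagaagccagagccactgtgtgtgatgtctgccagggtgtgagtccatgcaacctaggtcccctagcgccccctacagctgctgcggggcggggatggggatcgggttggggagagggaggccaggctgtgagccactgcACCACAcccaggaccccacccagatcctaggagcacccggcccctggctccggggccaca
Itgb1, chr8:128685404-128685653, plus strand, with GAGGAA as given: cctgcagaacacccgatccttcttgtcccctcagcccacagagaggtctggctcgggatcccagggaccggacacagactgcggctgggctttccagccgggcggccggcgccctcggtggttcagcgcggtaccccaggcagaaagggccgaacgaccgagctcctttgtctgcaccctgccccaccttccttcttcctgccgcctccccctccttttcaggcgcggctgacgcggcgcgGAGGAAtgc
Itga5, chr15:103366792-103367041, minus strand, with GAGGAA on the opposite strand: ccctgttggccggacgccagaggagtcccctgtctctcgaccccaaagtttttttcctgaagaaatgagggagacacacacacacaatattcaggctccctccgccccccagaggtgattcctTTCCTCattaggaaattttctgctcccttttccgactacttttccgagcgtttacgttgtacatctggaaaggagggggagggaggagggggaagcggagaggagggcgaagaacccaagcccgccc
Cxcr4, chr1:128592300-128592549, minus strand, with neither word: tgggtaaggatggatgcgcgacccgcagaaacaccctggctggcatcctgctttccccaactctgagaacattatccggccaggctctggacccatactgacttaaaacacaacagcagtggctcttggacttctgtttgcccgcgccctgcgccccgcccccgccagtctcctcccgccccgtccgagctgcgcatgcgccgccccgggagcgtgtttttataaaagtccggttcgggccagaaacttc
The Cd44 window held GAGGAA at 2 positions. Of 32851 promoter windows of this length in the table, 23.3% held GAGGAA and 14.0% TGTGGT. The pair Itga4 and Itgb1 shared neither word in these windows, and a match is a description of the letters, not a binding site.

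The 9 receptors were above the lowest value in every LSK, Veh and MCP library, in 6 or 7 of 9 cases in the WT LSC libraries and in 5, 0 and 1 cases in the 3 KO LSC libraries. Levels below are RPKM, which are per length and can be compared between genes. Itga4, which with Itgb1 anchors stem cells to Vcam1, was at 12.3 and 13.8 RPKM in WT LSK against 11.8 and 12.9 in KO LSK. The WT LSC libraries held 18.1, 71.4 and 50.7, while the 3 KO LSC libraries were each at 0.003. In the drug experiment the Veh libraries held 137, 134 and 141 and the MCP libraries 112, 118 and 109, the highest mean of the 9 receptors in both groups. The 5 groups with signal did not overlap except WT LSK with KO LSK. Itga5, the fibronectin receptor chain, was at 15.3 and 17.1 RPKM in WT LSK against 12.5 and 7.47 in KO LSK. WT LSC replicates held 2.05, 0.116 and 22.4, the KO LSC ones 18.5, 0.003 and 0.003. Its Veh libraries (24.1, 25.2 and 21.4) and MCP libraries (19.3, 28.6 and 23.9) overlapped. The 3 WT LSC libraries lay on both sides of all 4 LSK libraries. Itga6, the laminin receptor chain, had the lowest mean of the 9 in LSK cells, at 2.99 and 4.48 RPKM in WT and 3.19 and 6.36 in KO. The WT LSC libraries held 10.8, 0.340 and 16.2, all 3 KO LSC libraries 0.003, Veh libraries 34.6, 34.7 and 32.6 and MCP libraries 27.0, 22.1 and 24.8.

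Itgal, the alpha chain of LFA1, was at 11.8 and 29.9 RPKM in WT LSK against 23.6 and 10.1 in KO LSK, and was listed at 0.003 in all 6 LSC libraries of the genotype experiment. It was present in the drug experiment, where Veh libraries held 16.8, 19.5 and 20.3 and MCP libraries 14.6, 14.4 and 14.9. Its partner Itgb2, which all leukocyte integrins of this class share, was at 31.0 and 58.3 RPKM in WT LSK against 44.3 and 14.0 in KO LSK. WT LSC replicates held 0.003, 0.158 and 14.1. In KO LSC it was at 0.003 in 2 libraries and at 359 in KO LSC 3, where it was the sole receptor above the lowest value. Veh libraries held 15.5, 17.4 and 15.99 and MCP libraries 10.1, 12.7 and 11.8. Itgb1, the common partner of Itga4, Itga5 and Itga6, was, with Itga4, Itga5 and Itga6, an integrin chain with signal in all 3 WT LSC libraries. It stood at 42.1 and 87.2 RPKM in WT LSK against 50.5 and 56.7 in KO LSK. The WT LSC libraries held 29.8, 48.5 and 33.7, the KO LSC ones 2.66, 0.003 and 0.003. Veh libraries held 102, 103 and 98.3 and MCP libraries 91.1, 84.9 and 93.7, without overlap.

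Cd44 was at 12.5 and 24.4 RPKM in WT LSK against 8.94 and 10.5 in KO LSK. The LSC of the 2 experiments were far apart for this gene: 2.44, 7.02 and 0.003 RPKM in WT LSC with 0.710, 0.003 and 0.003 in KO LSC, against 75.7, 82.0 and 73.5 for Veh with 64.0, 73.2 and 57.5 for MCP. The 2 experiments were deposited as separate tables with different lowest values, so levels across them are given without a test. Selplg was the most abundant of the 9 in LSK cells by a wide margin, at 402 and 501 RPKM in WT and 507 and 376 in KO. The WT LSC libraries held 33.8, 21.6 and 45.3 RPKM and the KO LSC ones 32.7, 0.003 and 0.003. Veh libraries held 64.2, 70.4 and 63.0, above all 3 MCP libraries at 41.3, 42.7 and 60.2. Cxcr4 was at 9.56 and 14.5 RPKM in WT LSK against 12.4 and 10.3 in KO LSK. The WT LSC libraries held 5.70, 0.003 and 0.003 RPKM and the KO LSC libraries 26.2, 0.003 and 0.003. The 1 library with signal in each LSC group was replicate 1. Veh libraries held 31.1, 28.5 and 26.0 and MCP libraries 29.985, 28.8 and 27.5, with overlap.

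**Figure D1:**
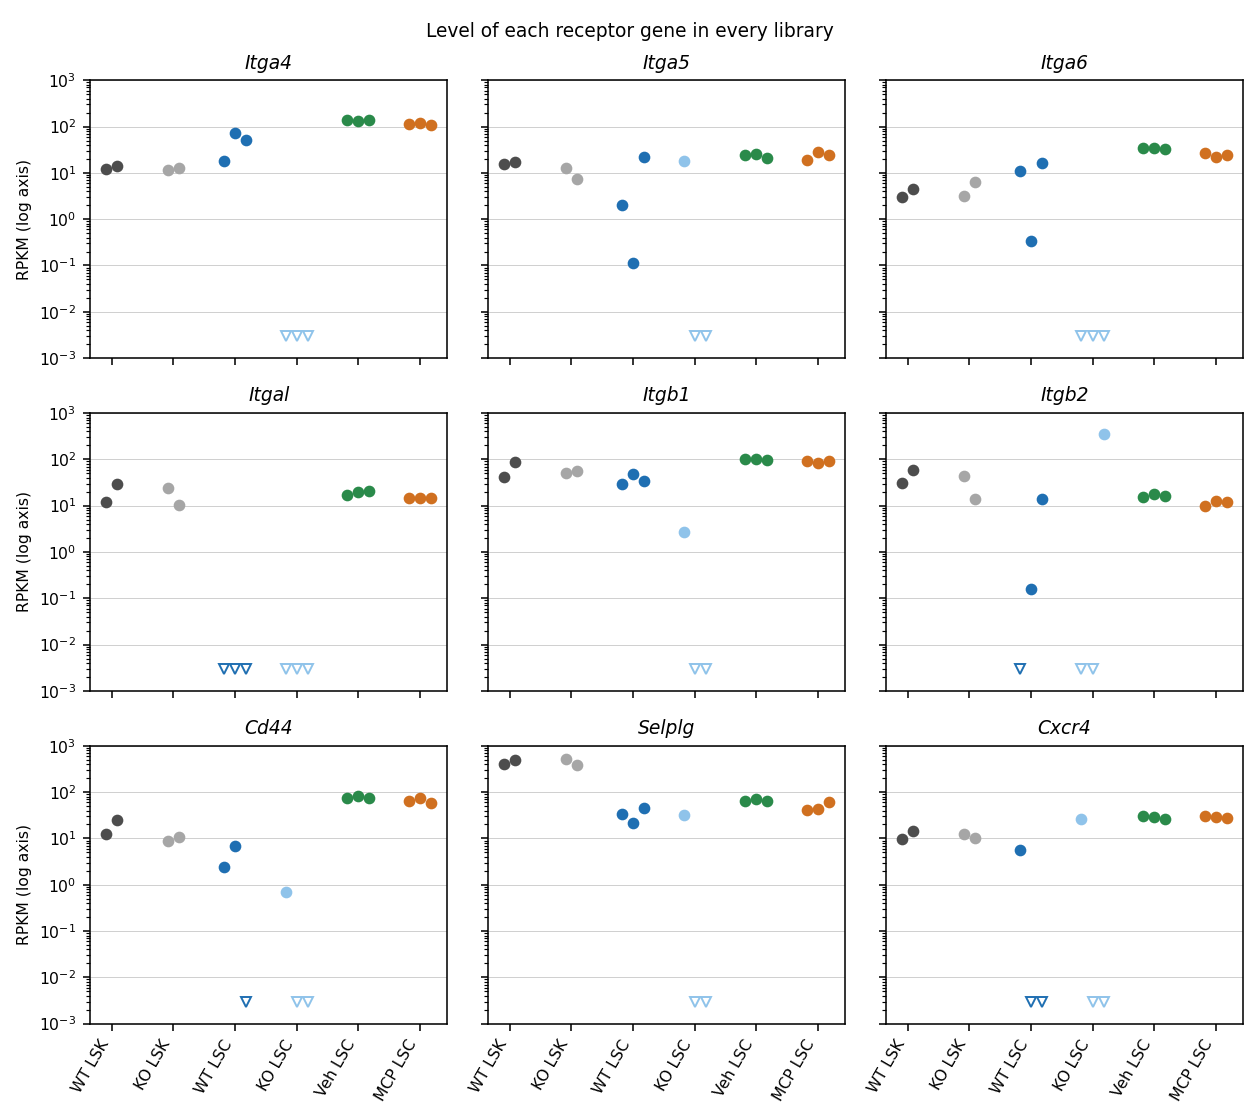
RPKM of the 9 receptor genes in each of 16 libraries on a log axis, by group; open triangles mark values at the lowest listed value of 0.003. All LSK, Veh and MCP libraries lie above the lowest value, with Veh and MCP apart from LSK for genes such as Itga4, Cd44 and Selplg. WT LSC and KO LSC libraries spread from the lowest value up to 71.4 RPKM (Itga4) and 359 RPKM (Itgb2).

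The order of the receptors by mean level differed between the LSK groups and the WT LSC, Veh and MCP groups. In WT LSK it ran Selplg (451 ± 69.9 RPKM, SD, n = 2), Itgb1 (64.7 ± 31.8), Itgb2 (44.6 ± 19.3), Itgal, Cd44, Itga5, Itga4, Cxcr4 and Itga6 (3.74 ± 1.06). The neighbours Itgb1 and Itgb2, Itgal and Cd44, Cd44 and Itga5, and Itga4 and Cxcr4 overlapped between libraries. KO LSK had the same top 3 and the same last gene, with overlap among the genes from Itgb2 down to Cd44. In WT LSC the leading 3 were Itga4, Itgb1 and Selplg, each overlapping the next, and Selplg did not overlap the fourth, Itga6. In Veh LSC the order was Itga4 (137 ± 3.26 RPKM, SD, n = 3), Itgb1 (101 ± 2.34), Cd44 (77.0 ± 4.42), Selplg (65.9 ± 3.96), Itga6, Cxcr4, Itga5, Itgal and Itgb2 (16.3 ± 1.03), and of these neighbours Itgal and Itgb2 alone overlapped. MCP LSC kept the first 4 places, with Cd44 and Selplg overlapping, and had Cxcr4 above Itga6.

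The balance of the integrin chains differed between these groups too. Itga4 made up 40.2% and 39.0% of the summed RPKM of Itga4, Itga5 and Itga6 in WT LSK with 42.8% and 48.3% in KO LSK. Values for WT LSC were 58.5%, 99.4% and 56.7%. The 99.4% of WT LSC 2 rests on Itga5 at 0.116 and Itga6 at 0.340 RPKM, about 1.4 and 4.1 reads by a rough estimate of depth. In Veh LSC the share was 70.5% ± 1.61 (SD, n = 3) and in MCP LSC 69.9% ± 0.771. All 9 LSC libraries of these 3 groups lay above the 4 LSK libraries. Veh and MCP had no LSK libraries in their experiment. For them leukemic state and experiment cannot be told apart, here or in the order above. The ratio of Itgb1 to the sum of its 3 alpha partners was 1.37 and 2.46 in WT LSK against 1.84 and 2.12 in KO LSK. For WT LSC it was 0.967, 0.674 and 0.378, for the drug groups 0.518 ± 0.0119 in Veh and 0.557 ± 0.0473 in MCP. The beta chain was thus above the sum of these alpha chains in each LSK library and below it in each WT LSC, Veh and MCP library. For LFA1, Itgb2 over Itgal was 2.61 and 1.95 in WT LSK against 1.88 and 1.38 in KO LSK. In the drug groups it was 0.868 ± 0.0690 in Veh and 0.785 ± 0.0956 in MCP, and it could not be formed where Itgal was at the lowest value. Veh and MCP overlapped in all 3 measures. KO LSC is left out here, since its alpha chains were at the lowest value except for Itga5 in 1 library.

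**Figure D2:**
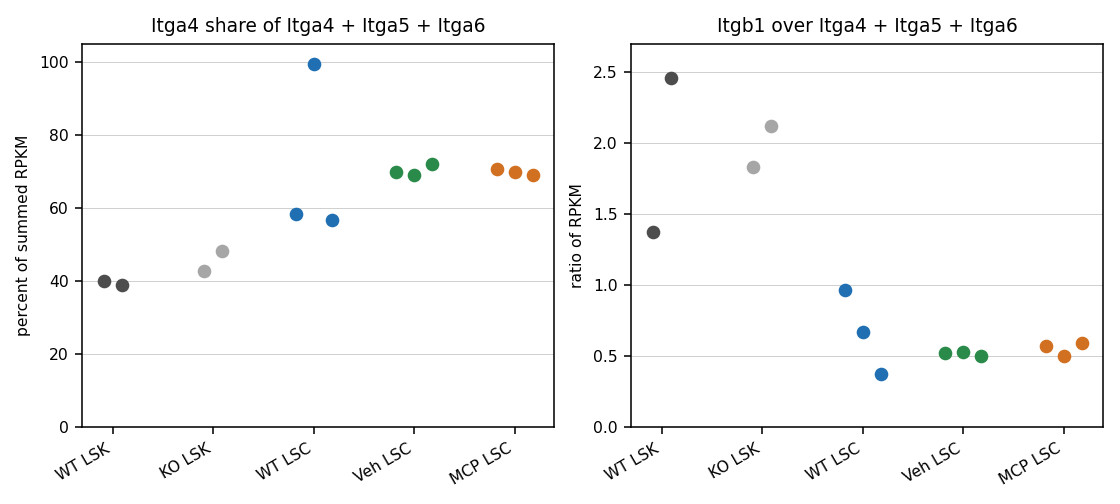
Left, the percent of the summed RPKM of Itga4, Itga5 and Itga6 that was Itga4; right, RPKM of Itgb1 over the sum of the 3 alpha chains; each point is 1 library, and KO LSC is not drawn. LSK libraries sit at 39.0% to 48.3% and at ratios of 1.37 or more, and LSC libraries of both experiments at 56.7% or more and at ratios of 0.967 or less.

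Leukemic against naive WT cells asked which receptors differ once LSK cells have become LSC. Itgal, at 0.003 in all 3 WT LSC libraries, and Cd44, at 0.003 to 7.02 RPKM, fell; Itga4 was the member with every WT LSC library above both WT LSK libraries but did not pass. Differences are of log2(RPKM + 1) with standard errors, tested with limma and adjusted by Benjamini-Hochberg over 13485 genes. Itgal differed by -4.31 (SE 0.45, adjusted p = 0.000103), a size that depends on the added 1 because 1 group is at the lowest value, and Cd44 by -2.61 (SE 0.80, adjusted p = 0.0303). So 2 of 9 members fell and 0 rose, beside 43.8% of all tested genes called, 42.3% lower and 1.45% higher. The median member differed by -2.61 and the median tested gene by -1.94, so lower values were general. Levels of B, T and NK cell genes in these groups are given above, and their part in these falls was not tested. Itga4 differed by 1.56 (SE 0.61, adjusted p = 0.0738), where 6.29% of genes had WT LSC wholly above WT LSK. Selplg differed by -3.76 (SE 1.54, adjusted p = 0.0843), with 21.6 to 45.3 RPKM in LSC and 402 to 501 in LSK. Groups of 5 members did not overlap in the lower direction, beside 56.3% of all genes. The other members gave -4.06 for Itgb2, -2.76 for Cxcr4, -2.00 for Itga5, -0.72 for Itgb1 and 0.47 for Itga6, and none of these passed. Quantile normalization, which forces equal distributions on the libraries, moved the median gene from -1.94 to 0.23. Under it Itgal lost its call (-0.96, adjusted p = 0.0561) and Cd44 turned to 0.18. Itga4 (3.07, adjusted p = 0.0112), Itga6 (1.97, adjusted p = 0.0194) and Selplg (-4.81, adjusted p = 0.0335) passed instead. Selplg also passed with only these 2 groups in the model (-3.76, adjusted p = 0.00574). The Cd44 call was also lost without WT LSK 1 (adjusted p = 0.0664), WT LSK 2 (0.189) or WT LSC 1 (0.0503), with a pseudocount of 0.1 (0.127) and with only these 2 groups in the model (0.123), while Itga4 passed without WT LSC 1 (2.12, adjusted p = 0.00228).

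Among 122 further genes of the adhesion and homing pathways tested in this comparison, 49 fell and 1 rose, the small GTPase Rac1 that acts below Cxcr4 and is named for being the one that rose. Of 13 genes for glycosylation and sulfation of selectin ligands, from the first sugar to tyrosine sulfation, 8 fell. Fut7, the fucosyltransferase that makes selectin ligands in leukocytes, was at 75.2 and 60.5 RPKM in WT LSK and listed at 0.003 in all 3 WT LSC libraries (adjusted p = 4.52e-06), and so were the sialyltransferase St3gal4, from 32.1 and 49.3 RPKM, and C1galt1c1, the chaperone of a core enzyme, from 21.9 and 19.3. Other homing receptors fell in 13 of 21 cases, with the junction protein Esam at 66.8 and 54.0 RPKM in WT LSK and listed at 0.003 in all 3 WT LSC libraries. Of 9 genes listed as Cd44 partners or membrane-actin linkers 3 fell, Ezr among them, which links Cd44 to actin and went from 26.3 and 115 RPKM to 0.003 in each library. Of 22 genes in Cxcr4 signalling 6 fell, among them Gnai3 (adjusted p = 0.000189), a G protein subunit, and Pik3cg (0.0118). The Pik3cg call did not hold in every fit that left out a library, where its difference ran from -4.66 to -2.45. Of 18 integrin activators and inhibitors 5 fell: Itgb1bp1, which restrains Itgb1 integrins, was at 137 and 84.4 RPKM in WT LSK and 0.003 in WT LSC. All of these counts stand beside 42.3% of tested genes lower.

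Loss of Cd93 in naive cells was not accompanied by a receptor that passed. The differences of KO LSK from WT LSK ran from -0.79 for Cd44 (SE 0.88) to 0.25 for Itga6 (SE 1.07), the adjusted p was 1 for each by limma, and 0 of 9 members had an unadjusted p under 0.05, where 8.70% of genes did. Of all genes 1.83% passed, 1.02% lower and 0.816% higher. The intervals are wide: for Itga4, the most precise but one, the 95% interval was -1.63 to 1.48, and for Itgb2 -7.27 to 5.79. The model shares a single spread per gene over all libraries of the genotype experiment, so these intervals also carry the spread of the LSC libraries. Selplg, for one, had an SE of 1.68 although its LSK libraries held 376 to 507 RPKM. Itga5 and Cd44 had both KO libraries below both WT libraries (20.5% of genes did, and 14% were wholly higher), at 12.5 and 7.47 against 15.3 and 17.1 RPKM for Itga5 and at 8.94 and 10.5 against 12.5 and 24.4 for Cd44. Of the 122 pathway genes 5 fell and 1 rose: Itgb3, which pairs with Itgav or Itga2b, went from 4.004 and 2.11 RPKM to 0.385 and 0.003, St3gal3, Fut4, S1pr3 and Jam3 also fell, and C1galt1, which starts the core of mucin-type sugars, rose from 0.627 and 1.11 to 3.69 and 3.72. With the 4 LSK libraries alone in the model 0 genes passed and the adjusted p of these 6 was 0.789 to 0.830. Itgb3 was at 0.003 in all 3 WT LSC and all 3 KO LSC libraries, so in the main model those libraries added no spread for it.

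Among leukemic cells, Itga4 and Itgb1, the 2 chains of one receptor for Vcam1, fell in KO LSC against WT LSC. Itga4 went from 18.1, 71.4 and 50.7 RPKM to 0.003 in each KO library, a difference of -5.37 (SE 0.55, adjusted p = 0.000694) whose size depends on the added 1, and Itgb1 from 29.8, 48.5 and 33.7 to 2.66, 0.003 and 0.003, a difference of -4.60 (SE 0.70, adjusted p = 0.0043). These 2 of 9 stand beside 8.81% of all tested genes called, 8.74% lower, and 0 of 9 rose beside 0.0742%. Itga6 (-2.69, SE 0.87, adjusted p = 0.138) also had no overlap, which makes 3 members lower without overlap where 14.1% of genes were; 0 members were wholly higher, beside 0.564%. The median member differed by -1.34 and the median tested gene by -0.77. Selplg differed by -3.36 (adjusted p = 0.219), Cd44 by -1.34, Itga5 by -0.67, Cxcr4 by 0.67 and Itgb2 by 1.46 (SE 2.30), and Itgal was at the lowest value in both groups. KO LSC libraries held fewer genes of any kind than WT LSC libraries, as given above, and the part of this in the fall of Itga4 and Itgb1 was not tested. Without the library labelled KO LSC 2, Itgb1 differed by -4.29 (adjusted p = 0.0145). Leaving out a KO library cannot move the Itga4 difference of -5.37, since Itga4 was at 0.003 in each of them. Its adjusted p without KO LSC 2 was 0.00321. Itga4 kept its call under each of the 14 alternatives run, from -8.62 with a pseudocount of 0.1 to -3.14 after quantile normalization (adjusted p = 0.022). Changed filters, the replicate block and a model of only these groups also left the difference at -5.37 and could move its SE alone. Every alternative reads the same values of 0.003 in KO LSC, so none of them tests whether Itga4 was captured. Itgb1 lost its call after quantile normalization (-1.77, adjusted p = 0.209) and with library weights (adjusted p = 0.806). Itga6 passed without WT LSC 2 (-3.82, adjusted p = 0.000706), the library that held 0.340 RPKM, Cd44 without WT LSC 3 (-2.13, adjusted p = 0.0296), where it was at 0.003, and Selplg without KO LSC 1 (-5.05, adjusted p = 0.00239), the KO library that held 32.7.

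The genotype effect differed between leukemic and naive cells for Itga4, by -5.30 (SE 0.86, adjusted p = 0.0129), beside 6.08% of all genes called, 5.15% lower and 0.934% higher. It was lost after quantile normalization (-3.24, adjusted p = 0.12). Itgb1 gave -4.43 (SE 1.11, adjusted p = 0.0638), and the other 7 members had adjusted p of 0.389 or more. KO LSC against KO LSK, which shares libraries with both contrasts, had 5 members lower and 0 higher beside 62.2% of genes called, 61.7% lower and 0.564% higher: Itga4 (-3.73), Itgal (-4.04), Itgb1 (-5.14), Cd44 (-3.16) and Selplg (-7.08), with a member median of -3.16 and a median of -3.06 over all genes. After quantile normalization 1 of the 9 passed and Cd44 turned to 0.95. Library weights left 2, and Cd44 lost its call without KO LSK 1 (adjusted p = 0.0511) or KO LSK 2 (0.0572). Groups of 6 members did not overlap, all lower, beside 75.2% of genes lower and 1.22% higher. Of the 122 pathway genes 74 fell and 1 rose, the adaptor Fyb, named here for being the one that rose.

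**Figure D3:**
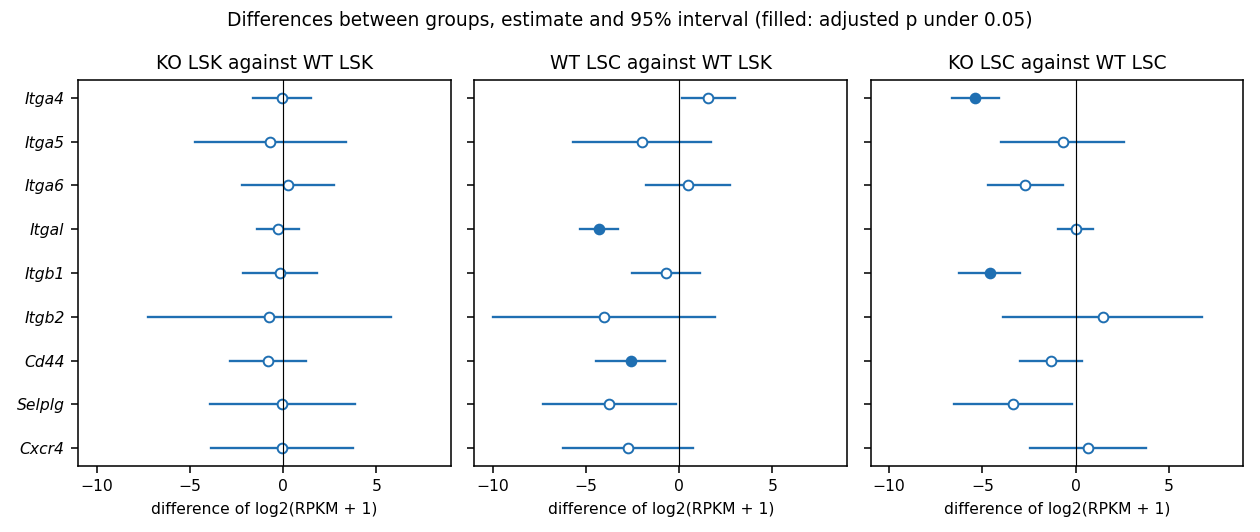
Differences of log2(RPKM + 1) for the 9 receptors in 3 comparisons of the genotype experiment, with 95% intervals from limma; filled points passed at an adjusted p under 0.05. No receptor passed in KO LSK against WT LSK, Itgal and Cd44 lie below 0 in WT LSC against WT LSK (Cd44 turned to 0.18 after quantile normalization), and Itga4 and Itgb1 lie below 0 in KO LSC against WT LSC.

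The pathway genes that fell in KO LSC against WT LSC, 16 of 122 with 0 rising, stand beside 8.74% of genes lower. Sharpin, which keeps beta chains inactive, was at 69.4, 104 and 193 RPKM in WT LSC and at 0.003 in each KO LSC library. Ilk, which ties Itgb1 to actin, was at 93.6, 37.9 and 80.6 RPKM against 0.003, 0.003 and 0.272, and Rap1a, a GTPase that turns integrins on, at 9.33, 8.56 and 4.45 against 0.003 in each. In Cxcr4 signalling 6 of 22 fell, among them the receptor kinase Adrbk1 (148, 176 and 303 RPKM against 0.003 in each) and the arrestin Arrb2 (44.1, 29.0 and 35.8 against 0.003 in each). The glycosylation enzymes Galnt1 and Gcnt1 fell, as did Icam2, a ligand of LFA1, and the kinase Syk. Of the genes listed as Cd44 partners or membrane-actin linkers 0 of 9 passed, and of other homing receptors 0 of 21.

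In the drug comparison 7 of the 9 receptors were lower in every MCP library than in every Veh library, by small amounts. None of the 9 passed the test, beside 2.32% of 14005 genes that did, 1.8% in the lower and 0.521% in the higher direction. Groups did not overlap in the lower direction for 25.6% of all genes and in the higher direction for 4.91%. Itga4 was 113 ± 4.36 RPKM (SD, n = 3) in MCP and 137 ± 3.26 in Veh, a difference of -0.28 (SE 0.07, adjusted p = 0.0743 by limma). Itga6 was 24.6 ± 2.46 against 34.0 ± 1.196, a difference of -0.45 (SE 0.11, adjusted p = 0.078). Itgb1 was 89.9 ± 4.51 against 101 ± 2.34 (-0.17, adjusted p = 0.226). The 2 chains of LFA1 were lower by a like amount, Itgal with 14.7 ± 0.261 against 18.9 ± 1.80 RPKM (-0.34, adjusted p = 0.184) and Itgb2 with 11.5 ± 1.33 against 16.3 ± 1.03 (-0.47, adjusted p = 0.123). Cd44 was 64.9 ± 7.87 against 77.0 ± 4.42 (-0.25, adjusted p = 0.217) and Selplg 48.1 ± 10.5 against 65.9 ± 3.96 (-0.47, adjusted p = 0.132). Without MCP 3, the library with 60.2 RPKM, Selplg passed (-0.64, adjusted p = 0.0371). Itga5 (24.0 ± 4.66 against 23.6 ± 1.96) and Cxcr4 (28.8 ± 1.25 against 28.5 ± 2.53) differed by 0.01 each, with 95% intervals of -0.37 to 0.38 and -0.24 to 0.27. An unadjusted p under 0.05 was reached by 5 of 9 members and by 23.0% of all genes.

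These differences lay on a background that was itself below 0 and that moved with gene length. The median of all tested genes was -0.18 and that of the 9 receptors -0.28. Genes with up to 1000 bases of exon had a median of -0.01, those of 3000 to 5000 bases one of -0.21 and those above 5000 bases one of -0.28. Itga4, with 9767 bases the longest of the 9, Itgal with 6381 and Cd44 with 5654 fell in the last class, and their differences of -0.28, -0.34 and -0.25 were near its median. Selplg and Cxcr4 had the shortest exons, 1855 and 1805 bases, in a class with a median of -0.06. After a correction for length, chosen after seeing the data, 0 of 9 passed and the differences were -0.58 for Selplg, -0.47 for Itgb2, -0.41 for Itga6 and -0.18 for Itga4. Marker genes of other cells differed too: 7 B cell genes summed to 46.9 to 52.6 RPKM in Veh and 0.716 to 2.25 in MCP, nearly all of it Igkc (43.0 to 47.4 in Veh, at the lowest value in MCP), with Ms4a1 and Pax5 at the lowest value in all 6 libraries. Macrophage genes, 10 in number, summed to 23.0 to 28.6 RPKM in Veh and 15.6 to 17.6 in MCP, with C1qb, C1qc and Fcgr1 at the lowest value in all 3 MCP libraries, and 8 megakaryocyte genes to 95.5 to 116 and 49.98 to 57.4. Sums of red cell precursor, endothelial and stromal genes were lower in MCP too, without overlap. The sum of the 10 neutrophil genes went the other way, at 244 to 349 RPKM in MCP and 173 to 189 in Veh. Most of it was S100a8 (104.8 to 144.7 against 63.2 to 83.6) and S100a9 (103.8 to 162.3 against 67.7 to 76.5). Ltf (0.345 to 1.56 against 2.32 to 2.74) and Mmp8 (lowest value against 0.168 to 0.192) were lower in MCP. Ngp, Camp, Cxcr2 and Mmp9 overlapped, and Retnlg and Ly6g were at the lowest value in all 6 libraries. For T and NK cell genes the sums overlapped at 87.4 to 130 against 77.8 to 88.7. The part of these cells and of detection in the lower receptor levels was not tested.

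**Figure D4:**
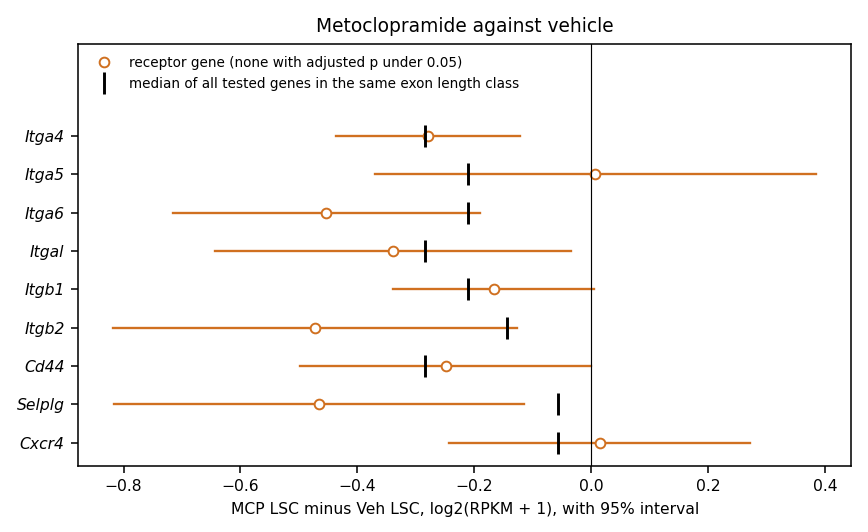
MCP LSC minus Veh LSC in log2(RPKM + 1) for the 9 receptors, with 95% intervals from limma; black ticks give the median of all tested genes in the same class of exon length. The points of Itga4, Itgal, Itgb1 and Cd44 lie close to their ticks, Selplg, Itgb2 and Itga6 lie below theirs, and Itga5 and Cxcr4 lie near 0.

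Of 118 further pathway genes tested in the drug comparison 9 fell and 0 rose, beside 1.8% of genes lower. They included 2 other alpha chains. Itga2b, the platelet chain that also marks early progenitors, was 19.8 ± 1.15 RPKM in MCP and 35.0 ± 0.713 in Veh (SD, n = 3; -0.80, SE 0.10, adjusted p = 0.02), and Itgav, the vitronectin receptor chain, 4.83 ± 0.476 against 10.3 ± 0.626 (-0.96, adjusted p = 0.0422). Of 10 genes listed as Cd44 partners or membrane-actin linkers 3 fell: the linkers Msn from 201 ± 17.6 to 133 ± 5.23 RPKM (-0.59), Rdx from 222 ± 10.1 to 160 ± 8.72 (-0.47) and Cd74, a partner of Cd44 in binding the cytokine Mif, from 53.1 ± 3.71 to 20.4 ± 4.02 (-1.35, adjusted p = 0.0114). Fyb, Fyn, Pik3cg and the sialomucin Cd34, from 132 ± 10.2 to 86.6 ± 9.55 RPKM, made up the rest. Each of the 9 calls was lost when any 1 of the 3 Veh libraries was left out, with adjusted p of 0.0506 to 0.225, although the differences stayed below 0. Itga2b belongs to the megakaryocyte genes whose sum was also lower in MCP.

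The gene whose profile lay nearest to each receptor was found over 16 libraries among 6985 genes, as the mean absolute difference of log2(RPKM + 1) centred within each experiment. For Itga4 it was the kinase gene Tlk1 (0.18), for Itgb1 the coat protein gene Sec23b (0.23), for Itga6 Trim41 (0.26), for Itga5 A230046K03Rik (0.36), for Itgal Dnajc14 (0.07), for Itgb2 the nuclease gene Parn (0.32), for Cd44 the phosphodiesterase gene Pde4a (0.16), for Selplg Tmem59 (0.34) and for Cxcr4 Urgcp (0.21). The median over all genes compared was 1.01 to 1.58. The 9 receptors themselves were left out of the genes searched, so the search cannot say whether they track each other. None of the nearest genes was in the pathway lists.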

How the data were processed

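RNA of sorted mouse bone marrow cells was made into SMART-Seq v4 libraries, per the labels' protocols. The deposited files, 1 per library, hold 1 value per gene, read here as RPKM from the values, since no header names the unit. The authors used GRCm38 (mm10), per the submitters' processing notes. The aligner and counter were not given in the sources used here, and depth is only roughly known. Source labels of the drug samples name LSK and their titles LSC, and titles were followed.

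Values were taken as log2(RPKM + 1), and a gene was kept where 2 or more libraries reached 1 RPKM (13485 in the genotype experiment, 14005 in the drug experiment), all 9 receptors among them. limma 3.58.1 in R 4.3.3 was fitted across all kept genes of each experiment, with a Benjamini-Hochberg threshold of 0.05. The spread of a gene was estimated over all groups of its experiment together. The fit was tested on simulated data. Named genes were the 9 receptors and up to 3 genes per pathway list and comparison that passed, smallest p first, with the nearest profile to each receptor. Exon lengths and overlaps came from GENCODE M21, promoters from RefSeq. The members and lists were chosen with earlier results of these data known. Alternatives were quantile normalization, other pseudocounts and filters, a replicate block, only the groups compared and leaving out each library. Length correction, library weights and a crossed block were chosen after seeing the data.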

Additional observations from a re-analysis of the deposited data

Results flagged for a closer look

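The difference of the genotype effect between leukemic and naive cells was tested for each receptor with an interaction term, and for Itga4 it was -5.30 (SE 0.86, adjusted p = 0.0129 by limma), with Itga4 at 0.003 in all 3 KO LSC libraries and at 11.8 and 12.9 RPKM in KO LSK. After quantile normalization it was -3.24 (adjusted p = 0.12), no longer past the threshold. The other 8 receptors did not pass this test.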

How the results depend on the processing

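The count of receptors passing in KO LSC against WT LSC was 2 and went to 1 with quantile normalization and to 1 with library weights, to 3 with a pseudocount of 0.1 and to 2 to 3 when 1 library was left out. In WT LSC against WT LSK it was 2 and went to 1 with a pseudocount of 0.1, to 1 with library weights and to 1 to 3 when 1 library was left out. In KO LSC against KO LSK it was 5 and went to 1 with quantile normalization and 2 with library weights. For the difference of the genotype effect it was 1 and went to 0 with quantile normalization, to 0 with a replicate block and to 1 to 3 without 1 library. For MCP it was 0 and ran from 0 to 1 without 1 library. Quantile normalization reversed Itga5 (0.17) and Cd44 (0.40) in KO LSC against WT LSC, and Itga4 (0.10) and Cxcr4 (0.089) in KO LSK against WT LSK. It reversed Itga5 (0.80), Itgb1 (0.53), Cd44 (0.18), Itgax (0.47), Itgb3 (0.19) and Mmp14 (0.76) in WT LSC against WT LSK. Quantile normalization also left Itga4, Itga6 and Selplg as the receptors passing in that comparison, in place of Itgal and Cd44. In KO LSC against KO LSK it reversed Itga5 (1.25), Itga6 (0.41), Itgb2 (1.33), Cd44 (0.95) and Cxcr4 (1.23), and in the difference of the genotype effect Cd44 (0.77). Library weights turned Itga6 to -0.063 in KO LSK against WT LSK. Leaving out 1 library gave, in KO LSC against WT LSC, -2.10 to 0.55 for Itga5, -1.37 to 2.87 for Itgb2 and -0.91 to 1.59 for Cxcr4. In KO LSK against WT LSK it gave -0.16 to 0.65 for Itga6, -0.90 to 0.36 for Itgal, -0.69 to 0.34 for Itgb1, -1.54 to 0.058 for Itgb2 and -0.34 to 0.22 for Cxcr4. In WT LSC against WT LSK it gave -0.24 to 1.60 for Itga6. In the difference of the genotype effect it gave -0.36 to 0.90 for Itgal, -0.63 to 3.61 for Itgb2, -1.34 to 0.16 for Cd44 and -0.85 to 1.65 for Cxcr4. The cause was not tested. Over all genes, higher and lower calls in KO LSC against WT LSC were 10 and 1178, and 562 and 745 with quantile normalization. In KO LSK against WT LSK they were 110 and 137, and 0 and 0 with only these groups, 1 and 0 with a filter on the mean, 11 and 4 with quantile normalization and 5 and 0 with the replicate block. In WT LSC against WT LSK they were 196 and 5709, and 1351 and 1568 with quantile normalization and 158 and 2863 with a filter on the mean. In KO LSC against KO LSK they were 76 and 8315, and 2013 and 1755 with quantile normalization. For the difference of the genotype effect they were 126 and 694, and 96 and 54 with quantile normalization and 0 and 0 with the block. For MCP they were 73 and 252, and 109 and 151 with quantile normalization, 7 and 32 with the block, and 2 to 19 and 22 to 60 without 1 Veh library. Same-numbered libraries did not deviate together (correlations of -0.28 to 0.04), so the numbers do not pair them. With the replicate block 2 receptors passed in KO LSC against WT LSC, 0 in KO LSK against WT LSK, 2 in WT LSC against WT LSK (Itgal and Itgb2), 6 in KO LSC against KO LSK and 0 under MCP, and the Itga4 difference of the genotype effect had an adjusted p of 0.0693. A crossed block in LSK gave 5 higher and 0 lower genes and 0 receptors. Values at 0.003 limit what the LSC libraries of the genotype experiment can show.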
